A study of Danio rerio with 18 samples.

Results

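The genes described here are 10 zebrafish genes of the xanthophore, the yellow pigment cell: the pteridine and purine enzyme genes gch2, pts, xdh and aox5, the transporter and lipid droplet genes slc2a11b, slc22a7a and bscl2l, the receptor gene csf1ra, and the transcription factor genes pax7a and pax7b. They were chosen by name from the 25581 genes that the deposited tables list. The tables carried the symbol for 9 of them, and pts was found by its Ensembl identifier.

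RNAseq was performed on pools of whole fish homozygous for a sox10 deletion (sox10-/-, allele ci3020), which removes the first coding exon and part of the 5′UTR, and on pools of stage-matched wild-type (WT) siblings or cousins. Tables were deposited for 4 days post-fertilization (dpf) and 45 hours post-fertilization (hpf), with 3 pools per genotype in each, of 10 to 12 sox10-/- and 10 to 15 WT fish at 4 dpf and of 10 to 15 sox10-/- and 10 to 25 WT fish at 45 hpf. A table deposited for 7 dpf repeats the 4 dpf values in 25896 of 25896 lines, so it was not used, and the files do not show at which of these stages the values were measured. No treatment was given to any group, and all libraries were made from poly-A RNA of the whole body, in which no cell type was sorted.

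Xanthophores arise from the neural crest, the embryonic cell population that also gives rise to black melanophores and silvery iridophores. Their yellow colour in larvae comes from pteridines, which are built from GTP. GTP cyclohydrolase opens the route, 6-pyruvoyltetrahydropterin synthase carries it on towards tetrahydrobiopterin and sepiapterin, and enzymes of the xanthine dehydrogenase and aldehyde oxidase family act on the coloured products.

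Values are in TPM, an abundance corrected for transcript length and scaled to a fixed sum in each library. Because TPM hold no read numbers, depth is unknown, and the only error available is the spread between 3 pools. Listed genes summed to 934603 to 953131 TPM per library. Genes above 10000 TPM in any library took up 24.6 to 40.5% of the TPM in sox10-/- pools at 4 dpf, against 16.7 to 19.4% in WT pools, and 11.8 to 26.1% in sox10-/- pools at 45 hpf, against 11.1 to 16.3% in WT pools. The median log2 fold change of all tested genes was -0.33 at 4 dpf and -0.25 at 45 hpf, and median-of-ratios rescaling of the libraries brought it to 0.03 and 0.002. Transcript of sox10 itself remained, with 5.77, 8.41 and 6.39 TPM in sox10-/- pools at 4 dpf, against 7.33, 5.25 and 6.02 TPM in WT pools, and with 11.2, 9.14 and 6.61 TPM in sox10-/- pools at 45 hpf, against 9.47, 14.0 and 11.7 TPM in WT pools. The genotypes overlapped in both tables, and as the deletion removes only part of the gene, this level does not check the genotype labels.

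The most abundant of these genes in WT embryos at 45 hpf were gch2 and pts, and both were nearly gone from sox10-/- embryos of that stage. gch2 (ENSDARG00000099101) encodes the GTP cyclohydrolase that marks xanthophores. It had 2.15, 1.85 and 1.40 TPM in sox10-/- pools at 45 hpf, against 75.0, 94.5 and 71.9 TPM in WT pools. Every mutant pool thus lay far below every WT pool. At 4 dpf gch2 had 1.62, 0.967 and 0.989 TPM in sox10-/- pools, against 5.16, 3.02 and 3.17 TPM in WT pools. The groups were again apart, but by much less, since WT larvae held little gch2. In limma, with Benjamini-Hochberg adjustment over all genes tested, the log2 fold change of gch2 was -4.86 ± 0.19 (SE, adjusted P = 1.87e-08) at 45 hpf, the fifth-largest fall of 17043 genes, and -1.11 ± 0.23 (adjusted P = 0.0431) at 4 dpf. Fold changes here are on the log2(TPM + 1) scale, which understates the change of genes with low values. In whole-body RNA, fewer xanthophores and less RNA per xanthophore cannot be told apart.

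pts (ENSDARG00000045269) encodes 6-pyruvoyltetrahydropterin synthase, which acts after GTP cyclohydrolase. Its level at 45 hpf was 1.92, 3.08 and 1.54 TPM in sox10-/- pools, against 56.9, 71.9 and 52.8 TPM in WT pools. The mean in mutants was 3.60% of the WT mean, with a log2 fold change of -4.29 ± 0.22 (limma, adjusted P = 2.74e-07). At 4 dpf pts had 1.74, 9.23 and 2.46 TPM in sox10-/- pools, against 27.0, 10.1 and 23.8 TPM in WT pools. Here sox10-/- replicate 2 and WT replicate 2 nearly met, and the log2 fold change of -2.11 had the widest error among the 8 of these 10 genes that were tested (SE 0.55, limma, adjusted P = 0.0440).

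xdh (ENSDARG00000055240, xanthine dehydrogenase) and aox5 (ENSDARG00000071475, an aldehyde oxidase) are related molybdenum enzymes. aox5 was close to undetected in mutant embryos at 45 hpf, with 0.0791, 0.0791 and 0.122 TPM in sox10-/- pools, against 6.44, 6.88 and 6.44 TPM in WT pools. At 4 dpf it had 0.722, 0.337 and 0.656 TPM in sox10-/- pools, against 1.35, 1.49 and 1.94 TPM in WT pools. The log2 fold change of aox5 was -2.79 ± 0.18 at 45 hpf (limma, adjusted P = 2.19e-06) and -0.73 ± 0.18 at 4 dpf (limma, adjusted P = 0.0431). xdh was low everywhere, around 1 TPM even in WT fish. Its values were 0.0998, 0.0302 and 0.0201 TPM in sox10-/- pools at 45 hpf, against 1.01, 1.12 and 1.01 TPM in WT pools, a log2 fold change of -0.96 ± 0.15 (limma, adjusted P = 0.0104). aox5 in both tables and xdh at 45 hpf were below 1 TPM in every mutant pool. They entered those tests through WT alone and had to differ. At 4 dpf xdh had 0.321, 0.458 and 0.312 TPM in sox10-/- pools, against 0.763, 0.804 and 1.46 TPM in WT pools. Those groups did not overlap either, but too few libraries reached 1 TPM for xdh to be tested across genes at 4 dpf, and an exact permutation test of 3 against 3 pools cannot give a p below 0.1, which it gave.

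**Figure D1:**
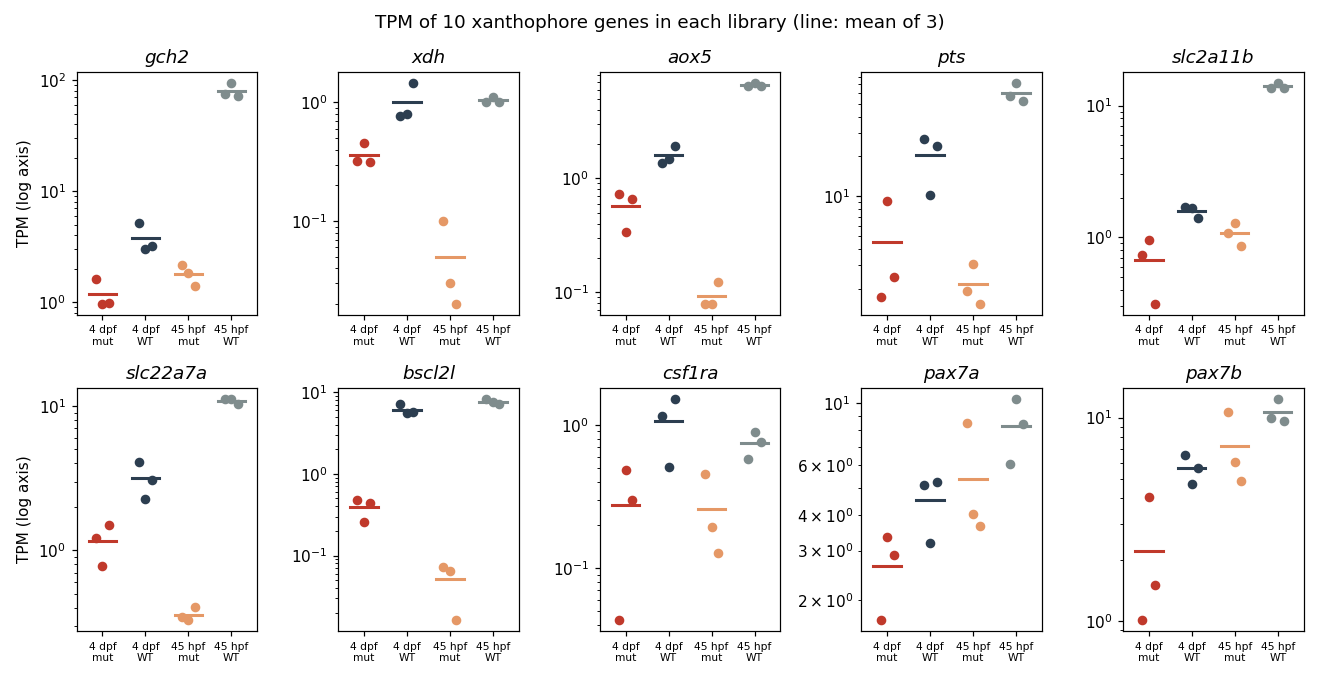
TPM (log axis) of each of the 10 genes in the 12 distinct libraries, with 1 point per pool and a line at the mean of 3 pools; columns run from 4 dpf sox10-/- (mut) and 4 dpf WT to 45 hpf sox10-/- and 45 hpf WT. At 45 hpf the points of gch2, pts, aox5, slc2a11b, slc22a7a and bscl2l in mutants sit far below those in WT, whereas those of pax7a and pax7b overlap.

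The transporter genes also had lower values in every sox10-/- pool than in any WT pool of the same table. slc2a11b (ENSDARG00000063288) belongs to the sugar transporter family and is needed for pigment cell formation in medaka. It had 1.07, 1.28 and 0.859 TPM in sox10-/- pools at 45 hpf, against 13.5, 14.9 and 13.7 TPM in WT pools, and its log2 fold change was -2.86 ± 0.20 (limma, adjusted P = 4.82e-06). At 4 dpf slc2a11b had 0.738, 0.961 and 0.313 TPM in sox10-/- pools, against 1.69, 1.66 and 1.41 TPM in WT pools. Although these groups were apart, the log2 difference of -0.65 ± 0.19 missed the threshold (limma, adjusted P = 0.0534).

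slc22a7a (ENSDARG00000056028) is a member of the organic anion transporter family. Its levels at 45 hpf were 0.346, 0.330 and 0.404 TPM in sox10-/- pools, against 11.1, 11.1 and 10.4 TPM in WT pools. At 4 dpf they were 1.22, 0.776 and 1.49 TPM in sox10-/- pools, against 4.12, 2.28 and 3.08 TPM in WT pools. slc22a7a was lower in mutants by a log2 fold change of -3.13 ± 0.19 at 45 hpf (limma, adjusted P = 1.38e-06) and of -0.94 ± 0.22 at 4 dpf (limma, adjusted P = 0.0431). At 45 hpf it was below 1 TPM in every mutant pool, so it entered the test through WT alone and had to differ.

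bscl2l (ENSDARG00000025912) resembles the seipin gene, whose product shapes lipid droplets. It had 0.474, 0.256 and 0.443 TPM in sox10-/- pools at 4 dpf, against 7.05, 5.48 and 5.68 TPM in WT pools. At 45 hpf bscl2l had 0.0733, 0.0653 and 0.0163 TPM in sox10-/- pools, against 8.18, 7.47 and 7.22 TPM in WT pools. Mutants held 6.45% of the WT mean at 4 dpf and 0.677% at 45 hpf, the smallest share of the 10 genes in both tables. The log2 fold change was -2.34 ± 0.17 at 4 dpf (limma, adjusted P = 0.00379) and -3.03 ± 0.18 at 45 hpf (limma, adjusted P = 1.38e-06). In both tables bscl2l was below 1 TPM in every mutant pool, so it entered the test through WT alone and had to differ.

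csf1ra and the pax7 genes act earlier in the lineage or in other cells too. At 45 hpf they kept a larger share of the WT mean than the other 7 genes, though csf1ra was below 1 TPM in every library. At 4 dpf this did not hold, with csf1ra at 26.1% beside gch2 at 31.5%, and pax7b at 39.0% beside slc2a11b at 42.3%. What set these shares was not tested. csf1ra (ENSDARG00000102986) encodes the colony stimulating factor 1 receptor, which xanthophores and macrophages both use. At 4 dpf csf1ra had 0.0434, 0.485 and 0.301 TPM in sox10-/- pools, against 1.16, 0.507 and 1.51 TPM in WT pools. At 45 hpf it had 0.455, 0.193 and 0.127 TPM in sox10-/- pools, against 0.575, 0.892 and 0.757 TPM in WT pools. The groups were apart in both tables, if narrowly, but csf1ra was below the minimum for the test across genes in both, and the exact permutation test gave its smallest possible p of 0.1 each time.

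pax7a (ENSDARG00000100398) and pax7b (ENSDARG00000070818) encode paired box factors that xanthophore precursors need and that muscle progenitors and the midbrain also express. At 45 hpf pax7a had 8.45, 4.03 and 3.67 TPM in sox10-/- pools, against 6.08, 10.3 and 8.42 TPM in WT pools. pax7b had 10.7, 6.06 and 4.89 TPM in sox10-/- pools of that table, against 9.89, 12.3 and 9.56 TPM in WT pools. For both genes sox10-/- replicate 1 lay within the WT range and replicates 2 and 3 below it. The log2 differences of -0.59 ± 0.28 for pax7a and -0.55 ± 0.25 for pax7b did not pass the test (limma, adjusted P = 0.248 and 0.236). Without sox10-/- replicate 1 both passed, at -0.91 (limma, adjusted P = 0.00216) and -0.84 (limma, adjusted P = 0.00279), but in that setting 30.2% of all tested genes were called lower.

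At 4 dpf pax7a had 1.70, 3.34 and 2.90 TPM in sox10-/- pools, against 5.11, 3.19 and 5.25 TPM in WT pools, so that sox10-/- replicate 2 was above WT replicate 2. pax7b had 1.01, 4.07 and 1.50 TPM in sox10-/- larvae, against 6.54, 4.68 and 5.67 TPM in WT larvae, with no overlap. Neither passed the test, with a log2 difference of -0.60 ± 0.25 for pax7a (limma, adjusted P = 0.110) and of -1.16 ± 0.34 for pax7b (limma, adjusted P = 0.0515).

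Set side by side, the 10 genes kept between 0.677% (bscl2l) and 68.2% (pax7b) of the WT mean in mutants at 45 hpf. The 7 enzyme, transporter and droplet genes all kept less than 8% there, and csf1ra, pax7a and pax7b 34.8%, 65.1% and 68.2%. At 4 dpf the range was from 6.45% (bscl2l) to 58.6% (pax7a), with gch2 at 31.5%, pts at 22.0%, xdh at 36.0%, aox5 at 35.9%, slc2a11b at 42.3% and slc22a7a at 36.7%. csf1ra was at 26.1% and pax7b at 39.0% of the WT mean in that table.

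**Figure D2:**
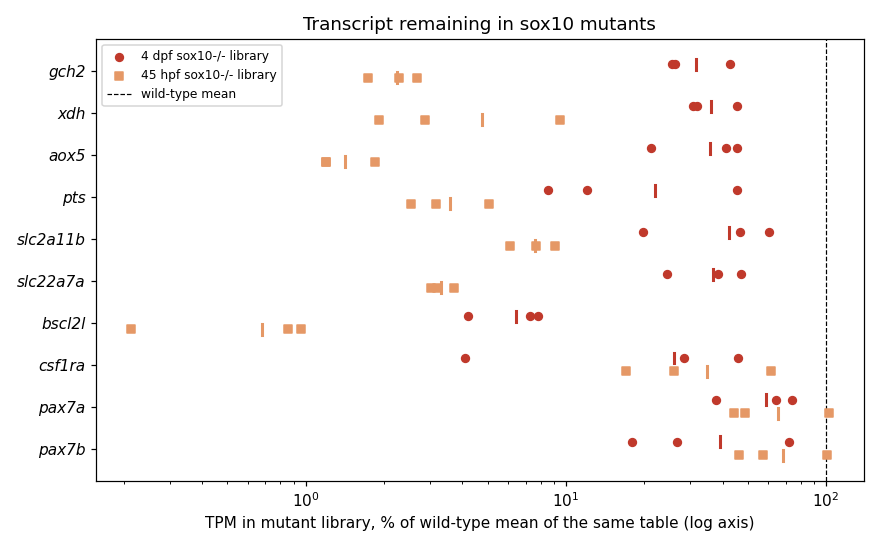
TPM of each sox10-/- pool as a percentage of the WT mean of the same table (log axis), for 4 dpf (circles) and 45 hpf (squares), with a short bar at the mean of 3 pools and a dashed line at 100%. The 45 hpf squares of the 7 upper genes lie below 10%, whereas at 4 dpf only bscl2l has all pools there.

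A gene was called when its adjusted P was 0.05 or less and the ratio between the groups was 5 to 4 or larger, among genes that reached 1 TPM in 3 or more of the 6 libraries. At 45 hpf 9 of the 10 genes reached this minimum and 7 were called lower in sox10-/- pools, where 0.499% of all tested genes were called lower. 8 of the 10 genes, the untested csf1ra among them, were lower without overlap, against 23.7% of all tested genes. xdh, aox5, slc22a7a and bscl2l were below 1 TPM in every mutant pool, so they entered the test through WT alone and had to differ. With no minimum, all 10 genes were tested and the same 7 passed, csf1ra, pax7a and pax7b excepted. xdh lost its call without sox10-/- replicate 2 (adjusted P = 0.0595 in limma) or replicate 3 (adjusted P = 0.0727 in limma).

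At 4 dpf 8 of the 10 genes reached the minimum and 5 were called lower in sox10-/- pools (gch2, pts, aox5, slc22a7a and bscl2l), where 18.8% of all tested genes were called lower. 9 of the 10 genes, the untested xdh and csf1ra among them, were lower without overlap, against 42.8% of all tested genes. aox5, slc2a11b and bscl2l entered the test through WT alone. After median-of-ratios rescaling bscl2l was the only one still called (log2 fold change -2.07, limma, adjusted P = 0.00648), while gch2 was at -0.80 (limma, adjusted P = 0.0658) and pts at -1.74 (limma, adjusted P = 0.0589). The number called also fell to 1 without sox10-/- replicate 1, WT replicate 1 or WT replicate 3, to 0 without sox10-/- replicate 3, and was 7 without sox10-/- replicate 2, where 32.1% of all tested genes were called lower. Relative to the median of all genes, the log2 fold change at 4 dpf was -0.78 for gch2, -1.78 for pts, -0.39 for aox5, -0.60 for slc22a7a and -2.01 for bscl2l.

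**Figure D3:**
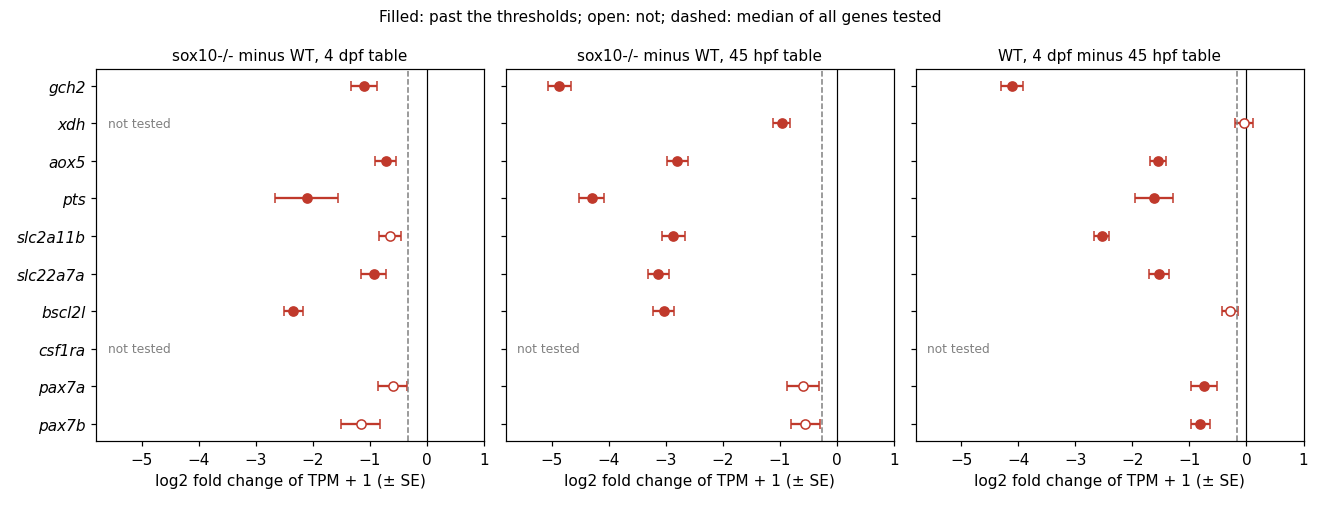
Log2 fold change of TPM + 1 (± SE) of each gene between sox10-/- and WT at 4 dpf (left) and at 45 hpf (middle), and in WT between the 4 dpf and 45 hpf tables (right), with filled points past both thresholds for a call and a dashed line at the median of all genes tested. gch2 is at -1.11 in the left panel and at -4.86 in the middle one, whereas pax7a is at -0.60 and -0.59.

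Whether the genotype effect differed between the tables was asked with an interaction term over all 12 libraries, for 8 of the 10 genes. It did for 4 of them, gch2, slc2a11b, slc22a7a and aox5, where 0.264% of 17403 tested genes passed. aox5 and bscl2l reached the minimum through the WT pools alone, and with no minimum the same 4 of the 10 genes passed. The effect at 4 dpf minus that at 45 hpf was 3.75 ± 0.29 log2 units for gch2 (limma, adjusted P = 1.01e-04), 2.22 ± 0.24 for slc2a11b (limma, adjusted P = 0.00143), 2.19 ± 0.26 for slc22a7a (limma, adjusted P = 0.00348) and 2.07 ± 0.21 for aox5 (limma, adjusted P = 8.66e-04). A positive value is a smaller deficit at 4 dpf. WT levels of these 4 genes were so low at 4 dpf that total loss there would fall short of the 45 hpf deficit. On the log2(TPM + 1) scale the sign was thus fixed by the WT levels and the 45 hpf deficit. The test therefore does not show that mutants kept a larger share at 4 dpf. For pts the difference was as large, 2.19, but with an SE of 0.63 it did not pass (limma, adjusted P = 0.166), nor did bscl2l at 0.69 ± 0.20 (limma, adjusted P = 0.169). pax7b had -0.61 ± 0.46 (limma, adjusted P = 0.541), and pax7a -0.01 ± 0.42 (limma, adjusted P = 0.990), with a sign that several alternatives turned. A pseudocount of 0.1 in place of 1 ended the call of slc2a11b (limma, adjusted P = 0.0718).

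In WT fish most of these genes were lower in the later table. Stage and table cannot be told apart in this comparison, as each stage was deposited in a table of its own. 7 of 9 tested genes were called lower at 4 dpf than at 45 hpf, where 39.6% of all tested genes were. gch2 fell furthest, to 3.78 ± 1.19 TPM at 4 dpf, against 80.5 ± 12.3 TPM at 45 hpf (SD, n = 3 each), which leaves 4.70% of the 45 hpf level (log2 fold change -4.11 ± 0.20, limma, adjusted P = 1.78e-06). slc2a11b kept 11.3%, aox5 24.2%, slc22a7a 29.1% and pts 33.6% of their 45 hpf means, and each was called lower. pax7a and pax7b kept 54.6% and 53.2%, called at a log2 fold change of -0.75 (limma, adjusted P = 0.0201) and -0.81 (limma, adjusted P = 0.00263). The call of pax7a was lost without 45 hpf WT replicate 2 (limma, adjusted P = 0.0729) or replicate 3 (limma, adjusted P = 0.0602). bscl2l was not called lower, at 79.6% of the 45 hpf mean (log2 difference -0.29 ± 0.14, limma, adjusted P = 0.0939), and xdh averaged 1.01 ± 0.39 TPM at 4 dpf and 1.05 ± 0.06 TPM at 45 hpf (SD, n = 3 each; adjusted P = 0.816 in limma). csf1ra was not tested, and its WT ranges overlapped.

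Accordingly, the order of the genes by level differed between the WT tables. At 4 dpf pts led with 20.3 TPM on average, apart from all others, and bscl2l, pax7b, pax7a, gch2 and slc22a7a followed between 6.07 and 3.16 TPM with ranges that overlapped from each gene to the next. At 45 hpf gch2 led, its range overlapping that of pts, and slc2a11b came next, apart from both neighbours. In sox10-/- embryos at 45 hpf pax7b and pax7a led instead, with 7.22 and 5.38 TPM on average and overlapping ranges.

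The same comparison in sox10-/- pools was added after the data had been seen. xdh, aox5, slc22a7a and bscl2l had higher values at 4 dpf than at 45 hpf without overlap, as did 21.7% of all tested genes. Their means were 0.364, 0.572, 1.16 and 0.391 TPM at 4 dpf, against 0.050, 0.0934, 0.360 and 0.0516 TPM at 45 hpf, and all but slc22a7a were thus below 1 TPM in both tables. An exact permutation test gave the smallest possible p of 0.1 for each of these 4 genes, which were too low for the test across genes. With no minimum they were called higher at 4 dpf (limma, adjusted P between 0.00457 and 0.0111), as were 14.9% of all tested genes. Of the 4 genes tested, pax7b was called lower at 4 dpf (log2 fold change -1.42 ± 0.37, limma, adjusted P = 0.00803), where 38.8% of all tested genes were. gch2 had a log2 difference of -0.36 ± 0.22 in mutants (limma, adjusted P = 0.193).

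Few of the genes next to these in the pathway passed the test. gch1, a paralog of gch2 known for its part in making tetrahydrobiopterin in neurons, had 12.3, 10.6 and 10.4 TPM in sox10-/- pools at 4 dpf, against 9.84, 8.07 and 9.35 TPM in WT pools. At 45 hpf it had 9.86, 9.57 and 8.31 TPM in sox10-/- pools, against 11.8, 13.3 and 11.6 TPM in WT pools. Mutants were above WT in the first case and below in the second without overlap, but neither log2 difference, 0.26 and -0.37, passed the test (limma, adjusted P = 0.212 and 0.256). The ratio of gch2 to gch1 within a library was 0.169 to 0.218 in sox10-/- embryos at 45 hpf, against 6.19 to 7.10 in WT embryos, and 0.0915 to 0.132 in sox10-/- larvae at 4 dpf, against 0.339 to 0.524 in WT larvae. As a ratio within a library, it does not depend on the scaling between libraries.

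Of 11 other genes of pteridine and tetrahydrobiopterin metabolism, 9 were matched in the tables. At 4 dpf 1 of the 9 was called lower in mutants and 0 higher, with a median log2 fold change of -0.07 beside -0.33 for all genes. The gene called was pcbd1, a dehydratase that regenerates tetrahydrobiopterin, with 16.6, 15.9 and 14.9 TPM in sox10-/- pools, against 29.1, 28.6 and 29.1 TPM in WT pools (log2 fold change -0.84 ± 0.12, limma, adjusted P = 0.0431). At 45 hpf 0 of 8 tested genes were called, with a median of -0.43 beside -0.25 for all genes, and 5 of the 9 were below WT without overlap. sprb, a sepiapterin reductase, had the lowest value there, -0.79 ± 0.21 (limma, adjusted P = 0.116). The call of pcbd1 was lost after rescaling, and without sox10-/- replicate 1 at 45 hpf 4 of the 8 genes passed (pcbd1, qdpra, spra and sprb), beside 30.2% of all tested genes. aox6, a paralog of aox5, averaged 1.77 TPM in sox10-/- larvae and 1.88 TPM in WT larvae at 4 dpf, with overlap, and was under the minimum at 45 hpf. The xdh and aox5 enzymes depend on the molybdenum cofactor. Of 6 matched genes listed for it, a gene of another molybdenum enzyme among them, 5 were tested and 0 were called in either table.

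Other genes linked to xanthophores or to their carotenoids were listed as well, 13 in all. At 4 dpf 4 of 9 tested were called lower in mutants and 0 higher, with a median log2 fold change of -0.68 beside -0.33 for all genes. At 45 hpf 4 of 10 were called lower and 0 higher, with a median of -0.75 beside -0.25. apoda.1, of the apolipoprotein D family, had the largest change in both, with 0.0989 TPM in sox10-/- embryos and 19.0 TPM in WT embryos on average at 45 hpf (log2 fold change -4.18, limma, adjusted P = 9.90e-08) and 0.451 TPM in sox10-/- larvae and 9.23 TPM in WT larvae at 4 dpf (log2 fold change -2.82, limma, adjusted P = 0.00379). slc2a15b, a sugar transporter gene needed for pigment cells in medaka, was called in both tables as well, at -1.94 at 4 dpf and -1.26 at 45 hpf (limma, adjusted P = 0.0368 and 0.0199). Both of these genes were still called after rescaling in both tables. However, apoda.1 was below 1 TPM in every mutant pool of both tables, so it entered the test through WT alone and had to differ, as did slc2a15a at 45 hpf. The others called were sox5 (-1.14), a transcription factor, and scarb1 (-0.71), a carotenoid uptake receptor, at 4 dpf (limma, adjusted P = 0.0431 each), and slc2a15a (-2.11), a paralog of slc2a15b, and bco1 (-1.20), a carotenoid cleaving enzyme, at 45 hpf (limma, adjusted P = 3.89e-05 and 0.0217). sox5 and scarb1 were no longer called after rescaling.

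The ligands of the Csf1 receptors, csf1a, csf1b and il34, were tested in both tables and 0 of 3 were called, with log2 differences between -0.19 and -0.14 at 4 dpf and between -0.50 and -0.04 at 45 hpf. csf1rb, the paralog of csf1ra, stayed below 0.3 TPM in every library and was not tested. At 4 dpf it was lower in mutants without overlap, at 26.6% of the WT mean, beside 42.8% of all tested genes. At 45 hpf its ranges overlapped. Since macrophages also express csf1ra, 7 of their markers were read. Of these, 3 were tested at 4 dpf and 2 at 45 hpf, and 0 were called, while marco, untested at 45 hpf, was higher there without overlap (0.953 TPM in sox10-/- embryos and 0.665 TPM in WT embryos on average). The summed level of the 7 was 6.91 to 14.8 TPM in sox10-/- larvae, against 7.96 to 13.5 TPM in WT larvae at 4 dpf, and 4.47 to 7.88 TPM in sox10-/- embryos, against 5.92 to 7.36 TPM in WT embryos at 45 hpf. Their part in the csf1ra values was not tested. For pax7a and pax7b, 6 markers of muscle progenitors and midbrain were read, of which 4 were tested in each table and 0 were called. Those untested, pax3b and met, were lower without overlap at 4 dpf, at 3.92% and 13.8% of the WT mean, and pax3b also at 45 hpf, at 25.1%. The summed levels of the 6 were 55.8 to 67.0 TPM in sox10-/- larvae and 52.5 to 58.9 TPM in WT larvae at 4 dpf, and 197 to 247 TPM in sox10-/- embryos and 161 to 250.2 TPM in WT embryos at 45 hpf.

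Markers of the other pigment cells were read as well. Of 6 melanophore markers, 4 were tested at 4 dpf and 4 were called lower in mutants (dct, tyrp1b, pmela and tyr, log2 fold changes between -1.97 and -1.35), whereas at 45 hpf 6 were tested and 0 were called, with a median of -0.45, or 4 without sox10-/- replicate 1, beside 30.2% of all tested genes. After rescaling pmela was the only one of them still called at 4 dpf. The pigmented epithelium of the eye, which does not come from the neural crest, expresses several of these genes too. Of 5 iridophore markers, 1 of 2 tested was called lower at 4 dpf (gpnmb, -0.95) and 4 of 4 at 45 hpf (pnp4a, -2.25; gpnmb, -2.01; ednrba, -1.33; tfec, -1.21), of which gpnmb at 4 dpf and tfec at 45 hpf lost their calls after rescaling. tyr at 4 dpf and ednrba and tfec at 45 hpf entered the test through WT alone, and with no minimum only pnp4a and gpnmb of the 5 iridophore markers were called at 45 hpf. Markers of liver, 0 of which were called in either table, varied widely between pools at 4 dpf, where their summed level was 99.2, 489 and 129 TPM in sox10-/- pools, against 592, 231 and 1517 TPM in WT pools. Replicate 2 of each genotype was the pool with the highest pts and pax7b among mutants and the lowest among WT. These pools also had the highest liver sum among mutants and the lowest among WT. Among mutants, replicate 2 had the highest xdh, slc2a11b, csf1ra and pax7a as well. But it had the lowest gch2, aox5, slc22a7a and bscl2l of the mutant pools, at 0.967, 0.337, 0.776 and 0.256 TPM. The part of pool composition in the 4 dpf values was not tested.

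The counts of these lists rested on single pools. At 4 dpf apoda.1 was the only gene of the pteridine, xanthophore, melanophore and iridophore lists still called without sox10-/- replicate 1, WT replicate 1 or WT replicate 3, and 0 were called without sox10-/- replicate 3. With no minimum, apoda.1 was again the only one called at 4 dpf. Without sox10-/- replicate 2, 5 xanthophore genes and the liver genes fabp10a and serpina1 were called lower at 4 dpf, beside 32.1% of all tested genes, and gphna, of the molybdenum cofactor list, was called higher, beside 3.62%. Without WT replicate 2, serpina1 was called lower. At 45 hpf 7 xanthophore genes were called lower and the liver gene tfa higher without sox10-/- replicate 1, beside 30.2% and 0.675% of all tested genes, and 2 xanthophore and 2 iridophore genes without sox10-/- replicate 3.

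**Figure D4:**
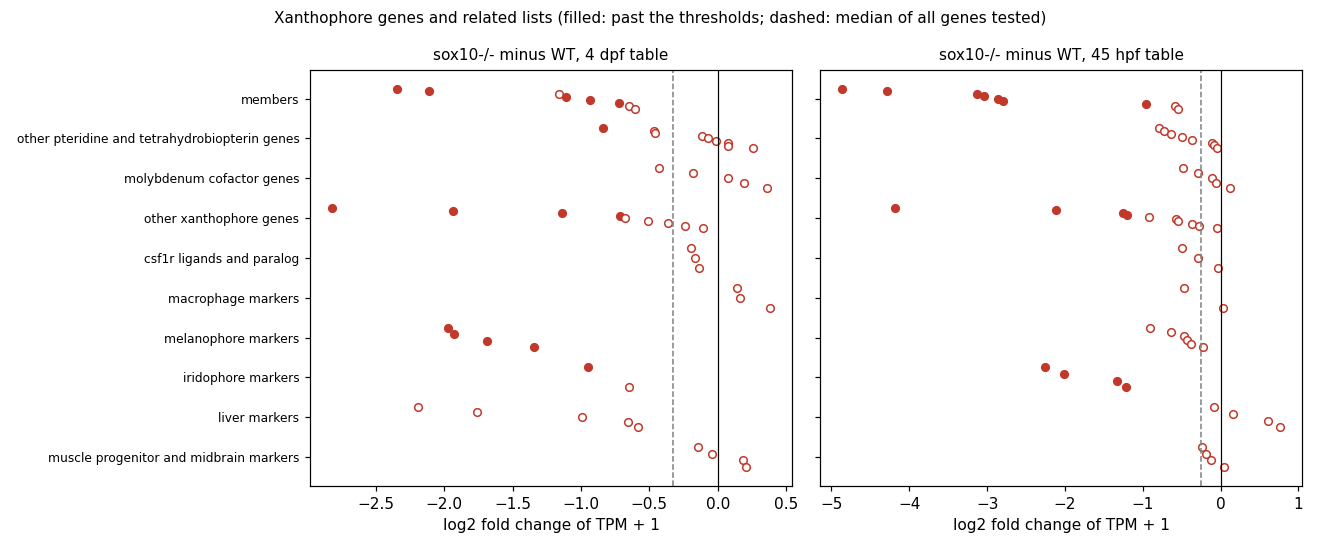
Log2 fold change of TPM + 1 between sox10-/- and WT for each tested gene of the 10 genes described here (members) and of each related list, at 4 dpf (left) and 45 hpf (right), with filled points past both thresholds for a call and a dashed line at the median of all genes tested. Among the related lists, filled points are found at 4 dpf for pteridine, xanthophore, melanophore and iridophore genes and at 45 hpf for xanthophore and iridophore genes.

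To see which genes had a pattern most like that of gch2, log2(TPM + 1) was correlated over the 12 libraries for 18986 genes that reached 1 TPM in 3 or more of them. The libraries fall into 4 groups and share scaling and stage, so the coefficients are a description only, and the median gene had a Pearson r of 0.459. The 10 highest were slc2a11b (0.992), LOC100330864 (0.991), slc2a15a (0.991), oacyl (0.982), prtfdc1a (0.969), ENSDARG00000113791 (0.967), slc16a6b (0.966), otomp (0.965), LOC100334697 (0.964) and bricd5 (0.963). After rescaling 9 of these 10 stayed among the top 10, slc16a6b excepted. The minimum could be met by WT pools at 45 hpf alone, where gch2 was highest, so genes admitted that way had to be high there too. slc2a15a, oacyl, prtfdc1a, ENSDARG00000113791, LOC100334697 and bricd5 averaged above 1 TPM in that group only. LOC100330864 (ENSDARG00000020711) was as abundant as gch2 in WT embryos at 45 hpf, with a mean of 78.6 TPM, against 1.31 TPM in sox10-/- embryos of that stage. Of the other genes described here, aox5 ranked 15 (0.941), slc22a7a 25 (0.922), pts 86 (0.854), bscl2l 975 (0.756), pax7a 1846 (0.720), pax7b 3811 (0.667) and xdh 4813 (0.643), and csf1ra was below the minimum.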

How the data were processed

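Whole-body RNAseq libraries were assigned to genotype and stage by their labels. The labels give no batch. The authors trimmed paired-end reads, pseudo-aligned them with kallisto on Galaxy and deposited gene values in TPM, 1 column per library. The submitters' processing notes name Trimmomatic 0.39, kallisto and GRCz11, and the kallisto version is not given in the sources used here. Of 18 labelled libraries 12 are distinct. The authors' test, DESeq2, needs counts and was not run.

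The 10 genes and the lists were chosen with earlier results of these data known. Genes that reached 1 TPM in 3 or more of 6 libraries, or in 6 or more of 12 for the interaction, were tested on log2(TPM + 1) with limma 3.58.1 (eBayes with trend) in R 4.3.3, with Benjamini-Hochberg adjustment, a step tested on simulated data. P-values measure only the spread between these pools. Single genes were compared by two-sided exact permutation tests. The text names the 10 genes, sox10, list genes called in either genotype fit, the paralogs gch1, aox6 and csf1rb, the ligands csf1a, csf1b and il34, and the 10 genes most correlated with gch2. sprb, spra, qdpra, fabp10a, serpina1, gphna, tfa, marco, pax3b, met, otx2b and myf5 were added after their values were seen. Alternatives were a pseudocount of 0.1, no minimum, a minimum mean of 5 TPM, quantile normalization, median-of-ratios rescaling, removal of genes above 10000 TPM with rescaling, a replicate block, robust eBayes and leaving out each library. The comparison between tables in mutants was added after the data were seen. Tables and plots were made with pandas 2.3.3, matplotlib 3.10.9, scipy 1.17.1 and numpy 2.4.6 in Python 3.11.15.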

Additional observations from a re-analysis of the deposited data

Results flagged for a closer look

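For 4 of the genes, the difference between sox10-/- and WT was itself different between the tables, by the interaction term in limma over 12 libraries. The effect at 4 dpf minus that at 45 hpf was 3.75 log2 units for gch2, 2.22 for slc2a11b, 2.19 for slc22a7a and 2.07 for aox5. In all 4 the deficit was smaller at 4 dpf, and mutant pools were lower than WT pools in every library of both tables. On log2(TPM + 1) this sign was fixed, since WT levels at 4 dpf were too low for a deficit as large as at 45 hpf. As shares of the WT mean, mutants held 2.24% of gch2, 7.63% of slc2a11b, 3.31% of slc22a7a and 1.42% of aox5 at 45 hpf. At 4 dpf they held 31.5%, 42.3%, 36.7% and 35.9%. Whether these shares differed was not tested, and several mutant values were below 1 TPM.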

How the results depend on the processing

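At 4 dpf the main count of 5 genes called lower fell to 1 with a pseudocount of 0.1, no minimum, a minimum mean of 5 TPM, quantile normalization, median-of-ratios rescaling or removal of genes above 10000 TPM, and to 0 with the replicate block. Leaving out single libraries gave 0 to 7 at 4 dpf and 6 to 9 at 45 hpf, where 7 were called. At 45 hpf a minimum mean of 5 TPM, which tests fewer genes, left 4. Between mutant tables the count of 1, a lower call, became 5 with no minimum (4 higher and 1 lower), 0 with a minimum mean of 5 TPM and 2 with quantile normalization, and 1 to 2 without single libraries. The WT count of 7 varied between 6 and 8. The interaction count of 4 became 1 with a minimum mean of 5 TPM and 1 with the replicate block, and stayed at 4 without single libraries. With the minimum mean of 5 TPM, slc2a11b, slc22a7a and aox5 were not tested for the interaction, and gch2 kept its call. Of the genes described here, that minimum left only pts to test at 4 dpf, where pts was called, and none between the mutant tables. Signs turned for xdh between WT tables (0.016 after rescaling, -0.20 to 0.042 without single libraries, above 0 without 4 dpf WT replicate 1 or 2), for pts between mutant tables (-0.017 to 0.93 without single libraries, below 0 without 4 dpf sox10-/- replicate 2), and for the pax7a interaction (0.12 after rescaling, 0.13 after quantile normalization, 0.11 without genes above 10000 TPM, -0.20 to 0.31 without single libraries). The cause was not tested. Same-numbered pools did not deviate together between genotypes (r between -0.61 and -0.01 over genes), so the block is no paired analysis. Over all genes, 3518 were called at 4 dpf, 53 with a pseudocount of 0.1, 20 with no minimum, 1487 with a minimum mean of 5 TPM, 41 after rescaling, 1252 after quantile normalization, 48 without abundant genes, 2 with the block and 4 to 6169 without single libraries. At 45 hpf 95 were called, 61 with no minimum, 44 with a minimum mean of 5 TPM, 737 with the block and 35 to 5269 without single libraries. The interaction called 46, 23 with a pseudocount of 0.1, 630 after quantile normalization, 276 without abundant genes, 5 with the block, 30 with robust eBayes and 15 to 884 without single libraries. Depth is unknown for TPM, so differences between values under 1 TPM have no counting error attached.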
